A study of Mus musculus with 2 samples.

Results

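The miR-221 and miR-222 cluster comprises the 4 mature miRNAs of a pair of X-linked hairpins, miR-221-3p, miR-221-5p, miR-222-3p and miR-222-5p. The members were taken by name, both arms of each hairpin, and all 4 were listed in both libraries, among 1125 mature miRNAs listed in at least 1 of them. The data are small RNA sequencing counts from mouse helper T cells, with 1 Th17 library and 1 Th0 library. Both cultures began with naive CD4+CD62L+ cells from spleens of female C57BL/6 mice, kept in medium with 10% serum. The Th17 culture ran for 6 to 7 days with anti-CD28 (1 µg/ml), antibodies against IL-4, IFN-γ, IL-2 and IL-12 (each 5 µg/ml), and 4 added cytokines. These cytokines were IL-6 and IL-23 (each 40 ng/ml), IL-1β (10 ng/ml) and TGF-β (2 ng/ml). For the Th0 culture, the sources used here name only anti-CD28 (1 µg/ml) and the antibodies against IL-4 and IFN-γ (each 5 µg/ml) as additions. They do not give its length. Culture time, anti-IL-2, anti-IL-12 and the 4 cytokines therefore cannot be told apart in any ratio between the libraries. The design text speaks of triplicates, but each group has 1 column of reads here, so no test of the conditions was possible. Every interval is a 95% interval of counting error, which leaves out the spread between cultures.

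miR-221 and miR-222 are cut from a shared primary transcript, and in most cells the 3p arms are the strands loaded into Argonaute. The 3p arms repress Cdkn1b, which encodes p27, an inhibitor of the cyclin-dependent kinases that drive cells out of G1, and they are therefore studied as promoters of proliferation. In mouse Th17 cells they have also been described as feedback regulators induced by IL-23 that repress Il23r, a chain of the IL-23 receptor, and Maf, a transcription factor of helper T cells.

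The mature sequences show what the 3p arms share. RefSeq (GRCm38.p6) held 3 of the 4 members under these names, and miR-222-5p is named only. Each is written 5′ to 3′ with its seed, bases 2 to 8, in capitals.
miR-221-3p: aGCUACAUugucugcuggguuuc
miR-222-3p: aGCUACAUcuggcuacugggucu
miR-221-5p: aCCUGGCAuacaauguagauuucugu
miR-1928: aGCUACAUugccagcuc
The 3p arms of both hairpins were identical over their first 8 bases, which contain the whole seed, and then differed, apart from a later shared run of 6 bases (CUGGGU). Reads longer than the shared start could thus be assigned to miR-221-3p or miR-222-3p, although the sources used here do not say how the authors assigned reads. Of the 1738 mature sequences in the RefSeq table, 1 other, miR-1928 on chromosome 1, carried the seed GCUACAU. miR-1928 was listed in neither library, and a count of 0 allows up to 3 reads, or 0.251 counts per 1000000 listed reads (CPM) in Th17 and 0.359 CPM in Th0. Among the RefSeq sequences, the 3p seed of this family was therefore represented by miR-221-3p and miR-222-3p in these libraries. Listed miRNAs without a RefSeq sequence were not checked for the seed.

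The hairpins are shown with the annotated arms in capitals, to place the 5p and 3p arms on each precursor. Only the 3p arm is marked on Mir222.
Mir221: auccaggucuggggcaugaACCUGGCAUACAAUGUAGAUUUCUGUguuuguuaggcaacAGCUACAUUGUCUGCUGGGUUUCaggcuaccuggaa
Mir222: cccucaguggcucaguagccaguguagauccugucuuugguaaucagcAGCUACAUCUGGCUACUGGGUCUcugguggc
Both lie on the minus strand of chromosome X in GRCm38 (mm10), Mir221 (ENSMUSG00000065422.1) at chrX:19146294-19146388 and Mir222 (ENSMUSG00000065471.1) at chrX:19146893-19146971. They are 504 bases apart, with Mir222 upstream. No other GENCODE M21 gene overlapped the interval from one to the other, so both are annotated as intergenic noncoding genes, each with a lone exon. The closest annotated gene was Gm14636, a noncoding transcript on the same strand, 10009 bases upstream of Mir222.

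The cluster was a minor part of both libraries and was lower in Th17. Its 4 members had 19499 of 11975371 listed reads in Th17 and 20589 of 8358010 in Th0. That is 0.163% of the Th17 reads (exact binomial interval 0.161 to 0.165%) and 0.246% of the Th0 reads (0.243 to 0.250%). Scaled to the sum of listed reads, the cluster stood at 1628 CPM in Th17 and 2463 CPM in Th0, which is 1.51-fold lower in Th17 (interval 1.48 to 1.54). In bulk libraries, fewer cells of a type and less RNA per cell cannot be told apart. Most of this difference lay in miR-221-3p: without it, the sum of the other members was 426 CPM in Th17 and 498 CPM in Th0, 1.17-fold lower in Th17 (1.12 to 1.22).

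miR-221-3p, the more abundant of the seed-sharing arms, had 14400 reads (1202 CPM) in Th17 and 16424 reads (1965 CPM) in Th0. It was 1.63-fold lower in Th17 (1.60 to 1.67). By reads it was the 67th miRNA of the Th17 library and the 48th of the Th0 library.

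miR-222-3p, with the same seed, had 3888 reads (325 CPM) in Th17 and 3037 reads (363 CPM) in Th0. It was 1.12-fold lower in Th17 (1.07 to 1.17), and its rank was 111 in Th17 and 105 in Th0. The difference was much smaller than that of miR-221-3p, although its interval also excluded 1. Its raw count was higher in Th17, since the Th17 library was the deeper one.

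The 5p arms are usually treated as passenger strands. In ratio, each was nearer to the 3p arm of its own hairpin than to the other 3p arm. The arms of Mir222 still differed, with a counting interval of the 3p minus 5p log2 difference of -0.46 to -0.033. miR-221-5p had 705 reads (58.9 CPM) in Th17 and 795 reads (95.1 CPM) in Th0, 1.62-fold lower in Th17 (1.46 to 1.79). miR-222-5p had 506 reads (42.3 CPM) in Th17 and 333 reads (39.8 CPM) in Th0. Its ratio of Th17 over Th0 was 1.06 (0.922 to 1.22), so no difference was detectable at this depth, and its log2 ratio of 0.085 changed sign, to -0.045, once the scaling total excluded the 10 most abundant miRNAs.

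**Figure D1:**
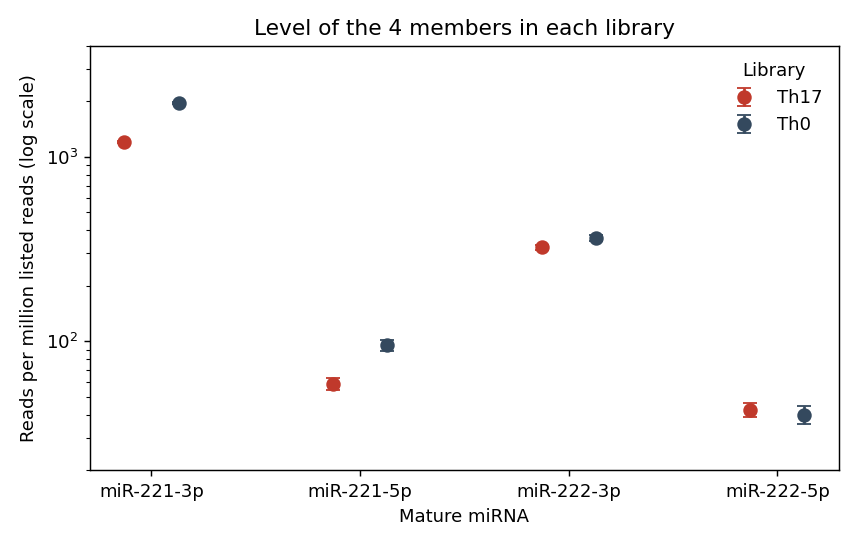
Levels in CPM (log axis) of the 4 members, with the Th17 library to the left of the Th0 library for each miRNA; bars are exact Poisson intervals, counting error only, and each point is 1 library. miR-221-3p and miR-221-5p are lower in Th17, at 1202 against 1965 CPM and 58.9 against 95.1 CPM, while the values of miR-222-3p and miR-222-5p lie close together.

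These ratios were read against all 298 miRNAs that averaged 10 CPM or more over both libraries. None of the 4 members was at least 2-fold different with an interval excluding 1, against 6.71% of the 298 that were at least 2-fold higher in Th17 and 13.1% that were at least 2-fold lower. At 1.5-fold, 2 of 4 members were lower in Th17, both from Mir221, beside 25.5% of all 298, and none was higher, beside 16.8%. Intervals lay below 1 for 3 of 4 members and for 47.7% of all, and above 1 for 0 of 4 members and 40.6% of all. The log2 ratio of miR-221-3p, -0.71 (-0.74 to -0.68), was the 64th lowest of the 298. That of miR-221-5p, -0.69 (-0.84 to -0.54), was the 67th lowest. miR-222-3p at -0.16 (-0.23 to -0.094) was the 134th and miR-222-5p at 0.085 (-0.12 to 0.29) the 175th. By point value the Mir221 arms thus stood below the interquartile range and the Mir222 arms near the middle of the distribution. The counting interval of miR-221-5p spanned the lower quartile, so counting error does not settle its placement. The median log2 ratio of the 4 members was -0.43, against -0.080 over all 298, whose interquartile range was -0.61 to 0.38.

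**Figure D2:**
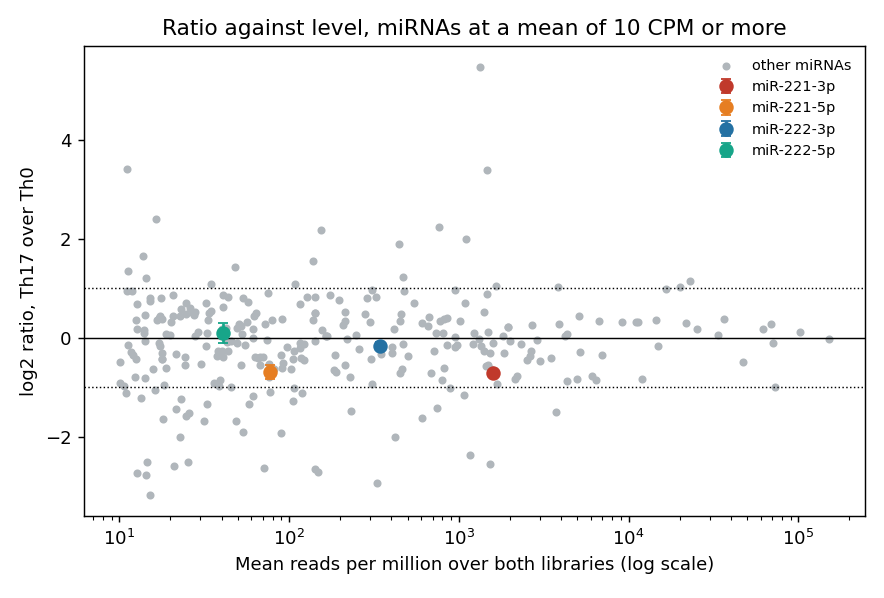
The log2 ratio of Th17 over Th0 against the mean CPM over both libraries (log axis) for the 298 miRNAs that averaged 10 CPM or more; grey points are other miRNAs, coloured points are the members with counting intervals, and dotted lines mark 2-fold. All 4 members lie between the dotted lines, with both Mir221 arms at about -0.7 and both Mir222 arms near 0.

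The hairpins of the cluster differed from each other in their ratio between the libraries. Both arms of Mir221 together had 1261 CPM in Th17 and 2060 CPM in Th0, 1.63-fold lower in Th17 (1.60 to 1.67). Both arms of Mir222 together had 367 CPM in Th17 and 403 CPM in Th0, 1.10-fold lower (1.05 to 1.15). The balance between the hairpins does not depend on how the libraries are scaled. miR-221-3p had 3.70 reads per read of miR-222-3p in Th17 (3.57 to 3.84) and 5.41 in Th0 (5.20 to 5.62). The ratio of these values was 0.685 (exact conditional interval 0.650 to 0.722), or -0.55 on the log2 scale. The 5p arms shifted the same way, with 1.39 reads of miR-221-5p per read of miR-222-5p in Th17 (1.24 to 1.56) and 2.39 in Th0 (2.10 to 2.72). That ratio of ratios was 0.584 (0.490 to 0.695). Each mature miRNA was counted by reads without division by length, and ligation preference was not corrected, so a ratio within a library is one of reads, not of molecules in the cell.

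The make-up of the cluster also differed between the libraries. miR-221-3p gave 73.8% of the cluster's reads in Th17 and 79.8% in Th0. miR-222-3p gave 19.9% in Th17 and 14.8% in Th0. The 5p arms took the rest, with 3.62% in Th17 and 3.86% in Th0 for miR-221-5p, and 2.60% in Th17 and 1.62% in Th0 for miR-222-5p. The seed shared by the 3p arms, summed over both, stood at 1527 CPM in Th17 and 2328 CPM in Th0, 1.52-fold lower in Th17 (1.49 to 1.56).

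Differences of this size between neighbouring hairpins were seen elsewhere in these libraries. Among 25 pairs of 3p arms from hairpins within 10000 bases of each other on the same strand, the median absolute difference of log2 ratios was 0.39, and the interquartile range was 0.14 to 0.60. The 0.55 between miR-221-3p and miR-222-3p was exceeded by 9 pairs. Pairs were formed whichever arm of a hairpin had more reads, so not all are alike. Most of the 9 include a less read arm, such as miR-18a-3p, whose hairpin had a 5p share of 53.1% in Th17 and 73.4% in Th0. Both 3p arms of the cluster were the more read ones. Among 31 pairs of 5p arms the median was 0.39 (interquartile range 0.16 to 0.56), and the 0.78 between miR-221-5p and miR-222-5p was exceeded by 4. By point value the 3p pair was therefore within the interquartile range, and the 5p pair was above it. On the log2 scale, the counting interval of miR-221 over miR-222 was -0.62 to -0.47 for the 3p arms and -1.03 to -0.52 for the 5p arms. In size each interval spanned the upper quartile of its own set of pairs, so counting error does not settle either placement. Hairpins of a locus share a transcript or lie close together and were counted in the same libraries, so these pairs are not independent.

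The arms of each hairpin were closer to each other than the hairpins were. This comparison was added after the values were seen. The log2 ratios of miR-221-3p and miR-221-5p differed by 0.016, and those of miR-222-3p and miR-222-5p by 0.25. Over 75 hairpins with both arms at a mean of 10 CPM or more, the median difference between arms was 0.32 (interquartile range 0.12 to 0.66). Of these hairpins 71 had a larger difference than Mir221 and 45 a larger one than Mir222. The counting interval of the 3p minus 5p difference was -0.17 to 0.14 for Mir221 and -0.46 to -0.033 for Mir222. In size, both intervals reached into the interquartile range over all hairpins, so these ranks are approximate.

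**Figure D3:**
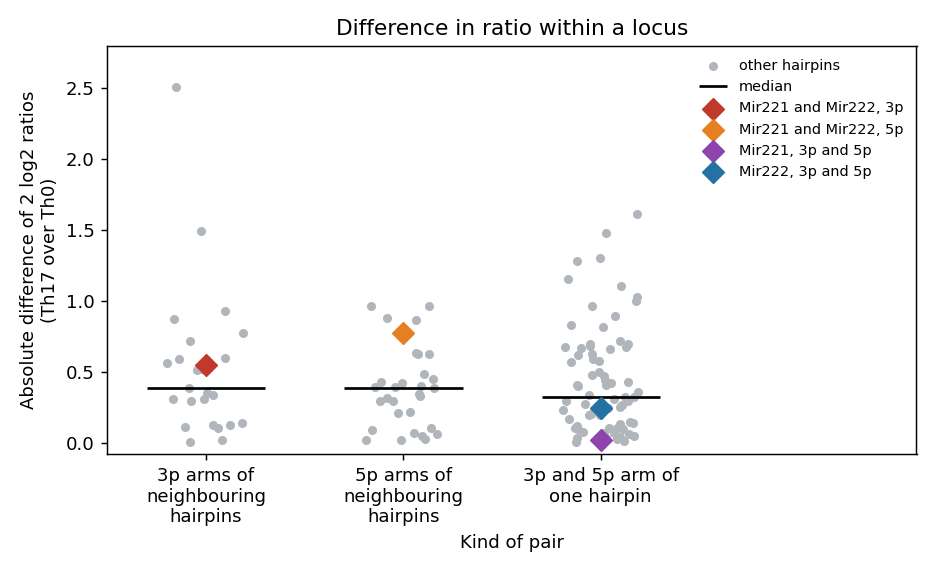
Absolute difference of the log2 ratios (Th17 over Th0) between 3p arms of neighbouring hairpins, between 5p arms of neighbouring hairpins, and between the arms of a hairpin; grey points are other pairs, lines are medians and diamonds mark the miR-221 and miR-222 cluster. The cluster's hairpins differ by 0.55 in their 3p arms and 0.78 in their 5p arms, whereas the arms of Mir221 differ by 0.016.

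Arm use was nearly the same in both libraries for Mir221 and differed slightly for Mir222. The 5p share of Mir221 reads was 4.67% in Th17 (exact binomial interval 4.34 to 5.02%) and 4.62% in Th0 (4.31 to 4.94%). The 5p share of Mir222 was 11.5% in Th17 (10.6 to 12.5%) and 9.88% in Th0 (8.89 to 10.9%), with overlapping intervals and a difference of 1.63 percentage points. Read as a ratio, miR-222-3p had 7.68 reads per read of miR-222-5p in Th17 and 9.12 in Th0, and the exact conditional interval of the ratio between libraries was 0.726 to 0.977. Both hairpins favoured the 3p arm in both libraries, as did 68 of 173 hairpins with at least 100 reads in each library (39.3%). The median absolute difference in 5p share over the 173 was 0.508 percentage points. For 52 of the 173 hairpins, Mir222 among them, the difference was at least as large as that of Mir222, and for 143, Mir221 among them, at least as large as the 0.050 points of Mir221.

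**Figure D4:**
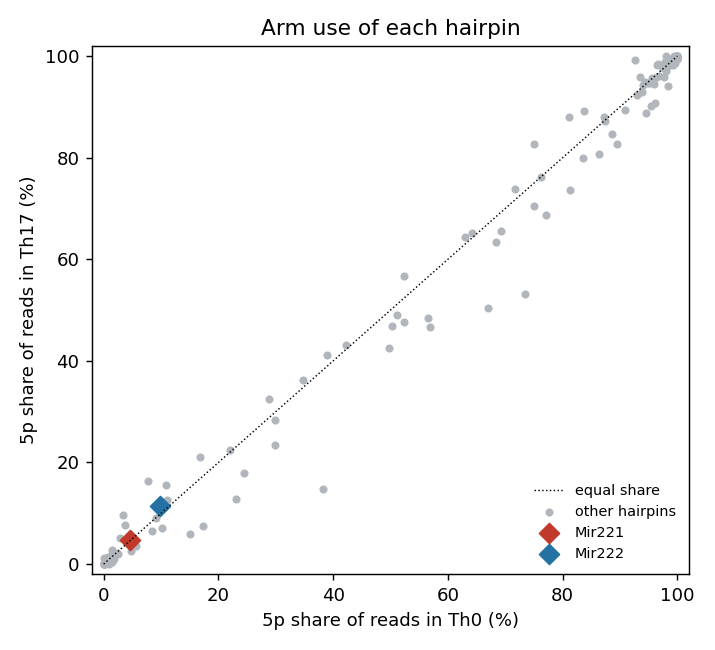
5p arm's share of a hairpin's reads in Th17 (vertical, %) against Th0 (horizontal, %) for 173 hairpins with at least 100 reads in each library; diamonds are Mir221 and Mir222 and the dotted line marks equal shares. Mir221 at 4.67% and 4.62% lies on the line and Mir222 at 11.5% and 9.88% slightly above it.

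In the order of levels, each 3p arm had neighbours that could not be told from it by counting error. In Th17, miR-221-3p stood between miR-532-5p (1204 CPM) and miR-378c (1164 CPM), and its interval against miR-532-5p spanned 1. In Th0 it stood between miR-210-3p, a hypoxia-induced miRNA (2043 CPM), and miR-363-3p of the X-linked Mir106a cluster (1945 CPM), and its interval against miR-363-3p spanned 1. miR-222-3p stood in Th17 between miR-328-3p (328 CPM), from which it did not differ beyond counting error, and miR-501-3p (306 CPM). In Th0 its neighbours were miR-212-5p (378 CPM) and miR-378d (347 CPM), and neither interval excluded 1. miR-378c and miR-378d are near-identical to miR-378a, so their counts are uncertain as separate miRNAs. Likeness of pattern was measured as the absolute difference of log2 ratios, over 2 libraries and 156 other miRNAs that averaged 100 CPM or more. The 3 nearest to miR-221-3p were miR-30a-5p (-0.71), miR-92a-1-5p (-0.72) and miR-139-5p (-0.70). The 3 nearest to miR-222-3p were miR-25-3p (-0.17), miR-301a-3p (-0.17) and miR-101b-3p (-0.15). With 2 libraries a likeness rests on a lone ratio.

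Other miRNAs reported to repress the same targets were also listed. The list held 6 miRNAs reported, mostly in human cell lines, to repress p27, and miR-155-5p, which represses Maf in mouse T cells. All 7 were listed and 4 reached a mean of 10 CPM, of which 2 had intervals above 1 and 2 below, beside 40.6% above and 47.7% below among all 298, which is close to the background. miR-155-5p, an activation-induced miRNA, was at 31749 CPM in Th17 and 14346 CPM in Th0, 2.21-fold higher (2.20 to 2.23). miR-181a-5p, known to set the signalling threshold of the T cell receptor, was at 22098 CPM in Th17 and 11156 CPM in Th0, 1.98-fold higher (1.97 to 2.00). In the other direction, miR-148a-3p was at 1954 CPM in Th17 and 5542 CPM in Th0, 2.84-fold lower (2.79 to 2.88). miR-24-3p was at 892 CPM in Th17 and 1013 CPM in Th0, 1.14-fold lower (1.10 to 1.17). The miRNAs under the minimum mean were scarce. miR-152-3p, with the seed of miR-148a-3p, had 32 reads in Th17 and 138 in Th0, 6.18-fold lower (4.18 to 9.38). The Hox-linked miR-196b-5p had 110 reads in Th17 and 1 in Th0, a ratio of 76.8 (13.5 to 3060), and miR-196a-5p had 7 reads in Th17 and 1 in Th0, with an interval that spanned 1. The median log2 ratio of the 4 above the minimum was 0.40, against -0.080 over all 298. By level, the cluster's 3p arms at 1527 CPM in Th17 and 2328 CPM in Th0 were below miR-155-5p, miR-181a-5p and miR-148a-3p and above miR-24-3p in both libraries.

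Of the marker lists, the blood and T cell list had by far the highest summed level in both libraries. All 6 blood and T cell markers were abundant, at a summed 283585 CPM in Th17 and 249102 CPM in Th0. Of these sums, miR-21a-5p alone gave 150405 CPM in Th17 and 153148 CPM in Th0. Intervals lay above 1 for 4 of the 6 and below 1 for 2, beside 40.6% above and 47.7% below among all 298. None of the 6 was chosen as a marker of the Th17 state. miR-221 and miR-222 are also abundant in endothelial cells and fibroblasts, so those markers bear on the cluster. Both arms of endothelial miR-126a, which come from the same hairpin, were lower in Th17, at a summed 85.9 CPM in Th17 and 191 CPM in Th0. Both had intervals below 1, beside 47.7% of all 298. The 5 fibroblast and smooth muscle markers were all listed in both libraries and summed to 27.4 CPM in Th17 and 2.63 CPM in Th0, with intervals above 1 for 4 of 5. None of these 5 reached a mean of 10 CPM, so none counts as a call, and the share of 40.6% above 1 is that of the 298 more abundant miRNAs. The 5 epithelial markers summed to 208 CPM in Th17 and 387 CPM in Th0, with 4 of 5 below 1, beside 47.7% of all 298. Myeloid miR-223-3p was at 6.76 CPM in Th17 and 3.35 CPM in Th0, and the 2 erythroid markers summed to 2.17 CPM in Th17 and 0.718 CPM in Th0, with miR-144-3p at 0 in Th0. Liver miR-122-5p had 1 read in Th17 and 0 in Th0, and miR-1a-3p of muscle was listed in neither library. The muscle markers summed to 0.835 CPM in Th17 and 0.239 CPM in Th0. The neural markers summed to 4.93 CPM in Th17 and 13.9 CPM in Th0. Nearly all of this was miR-9-5p, with 57 reads in Th17 and 116 in Th0. Its ratio of Th17 over Th0 was 0.343 (0.245 to 0.475), but its mean of 9.32 CPM was under the minimum for a call. The other neural marker, miR-124-3p, had 2 reads in Th17 and 0 in Th0. The part of other cell types in the lower miR-221 was not tested.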

How the data were processed

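The authors deposited, for either library, whole-number read counts for mature miRNAs, not normalized, and TPM. In the deposited TPM these counts are divided by a total of 13070648 reads for Th17 and 9072995 for Th0, with no division by length, which was checked on the files. Per the submitters' processing notes, the genome build was mm10. The sources used here do not give the trimming, the aligner, the miRNA release or how replicates were combined.

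Counts were divided by the sum of listed counts (CPM), and a miRNA missing from a table was taken as 0. The 95% intervals of ratios are exact and conditional on the summed counts (Clopper-Pearson), and those of shares are exact binomial. Without molecular identifiers PCR reads are not independent, so intervals and floors cover counting error only. With 1 library per group no p-value is given. A call needs a mean of at least 10 CPM, an interval that excludes 1 and, where stated, a fold of 2 or 1.5. Alternative scalings used TMM (edgeR 4.0.16) and size factors (DESeq2 1.42.0) in R 4.3.3, the TPM totals, and the sum without the 10 most abundant miRNAs. Python 3.11.15 with scipy 1.17.1 ran the rest, tested on simulated data. Neighbouring hairpins were taken from GENCODE M21, with 763 of 782 precursors placed, and miRNAs with several precursors were left out.

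The members and lists were chosen with earlier results of these data known. Named miRNAs are the members, RefSeq miRNAs with their seeds, the neighbours in level of each 3p arm, the 3 nearest in ratio at a mean of 100 CPM or more, 7 miRNAs reported to repress p27 or Maf, and cell type markers.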

Additional observations from a re-analysis of the deposited data

How the results depend on the processing

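TMM scaling and the authors' totals left each member inside its counting interval. With DESeq2 size factors the log2 ratio was -0.63 for miR-221-3p, -0.084 for miR-222-3p and -0.52 for the summed members. Without the 10 most abundant miRNAs in the total, which shifts all ratios by -0.13, they were -0.84, -0.29 and -0.73. The summed log2 ratio was -0.60, -0.23 without miR-221-3p and -0.69 without miR-222-3p. The difference between miR-221-3p and miR-222-3p, -0.55, does not depend on scaling by construction. With no minimum (1125 miRNAs), 69 were at least 2-fold higher and 100 lower, 110 at least 1.5-fold higher and 153 lower, and 182 intervals lay above and 220 below 1. At a minimum of 100 CPM (158 miRNAs) these counts were 13, 15, 27, 36, 71 and 78, since fewer were tested. The median shift in 5p share was 0.285 points at a minimum of 1000 reads, and the median difference of neighbouring 3p arms was 0.26 at a minimum of 100 CPM. At 1000 reads (115 hairpins) 28 shifted at least as much as Mir222 and 89 as much as Mir221. The cluster's 3p difference was exceeded by 2 of 8 pairs at 100 CPM and by 7 of 21 within 2000 bases, and its 5p difference by 2 of 24 within 2000 bases; at 100 CPM its 5p arms formed no pair. The 4 other scalings tried moved none of the counts over all miRNAs by over 1.5 times. No paired analysis was possible because each group has 1 library, and for the same reason no replicate could be left out.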
